A study of Mus musculus with 6 samples.

Results

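The miR-17-92 cluster and its paralog on the X chromosome, the miR-106a-363 cluster, were examined in the liver small RNA libraries of diabetic mice through the 10 guide arms that the clusters encode between them. The members were taken by name from the deposited table, and all 10 were among its 1039 miRNAs. The J group and the M group each comprised 3 libraries, each from a different mouse. All 6 mice were wild type ICR mice, an outbred stock, of 30 weeks of age, and all were kept on high-fat diet, which had been given for 12 weeks when gavage began. Gavage went on for 8 weeks, in the J group with JTXK (Jiang Tang Xiao Ke) granule, a compound of medicinal plants, and in the M group with sterile water. The diabetic state therefore rests on diet alone in both groups, and no chow-fed liver was analysed here. Levels are given as RPM, the reads of a miRNA per 1000000 miRNA reads of its library, and the libraries held 2626353 to 4314134 miRNA reads.

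The miR-17-92 cluster, also called oncomiR-1, is transcribed as a single precursor that Myc and E2F factors induce in dividing cells. Its miRNAs repress the pro-apoptotic Bim and the cell cycle inhibitor p21, and so favour growth and survival. The clusters arose by duplication, and the X-linked copy is known as a silent or weakly expressed copy in most adult tissues. In mature hepatocytes, which rarely divide, these miRNAs are not among the defining ones, and that place belongs to miR-122.

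Both clusters hold 6 hairpins within a short stretch of DNA. The miR-17-92 hairpins lie on the plus strand of chromosome 14 (115043671 to 115044506 in GRCm38, 836 bases) and overlap the annotated exons of the noncoding RNA gene Mir17hg. The miR-106a-363 hairpins lie on the minus strand of chromosome X (52741693 to 52742567, 875 bases). Mir106a overlaps the end of the noncoding gene Kis2, and the other hairpins of that cluster overlap no other annotated gene. Mature sequences of the 10 members follow, from RefSeq on GRCm38, because they decide which members share targets and which can be confused by a short read. They are written 5′ to 3′ with the seed, bases 2 to 8, in capitals. The seed of miR-17-5p is shared by 4 members, and the first pair comes from chromosome 14 and the second pair from the X chromosome.
mmu-miR-17-5p: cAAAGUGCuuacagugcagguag
mmu-miR-20a-5p: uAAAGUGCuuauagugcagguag
mmu-miR-106a-5p: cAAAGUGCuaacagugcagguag
mmu-miR-20b-5p: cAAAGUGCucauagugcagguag
The miR-18 seed has a member in each cluster, miR-18a-5p on chromosome 14 and miR-18b-5p on the X chromosome.
mmu-miR-18a-5p: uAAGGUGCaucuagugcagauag
mmu-miR-18b-5p: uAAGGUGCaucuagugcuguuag
The miR-19 seed belongs to miR-19a-3p, from chromosome 14 alone, and to miR-19b-3p, which both clusters encode with the same sequence.
mmu-miR-19a-3p: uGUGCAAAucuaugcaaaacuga
mmu-miR-19b-3p: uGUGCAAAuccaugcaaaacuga
The miR-92 seed belongs to miR-92a-3p, again encoded by both clusters, and to miR-363-3p from the X chromosome.
mmu-miR-92a-3p: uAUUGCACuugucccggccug
mmu-miR-363-3p: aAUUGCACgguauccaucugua
Counted from the 5′ end, miR-106a-5p differs from miR-17-5p by U10A alone, and miR-19b-3p differs from miR-19a-3p by U11C alone. miR-20b-5p differs from miR-20a-5p by U1C and U10C, and miR-18b-5p differs from miR-18a-5p by A18U and A20U. The sources used here give no mismatch rule for assigning reads, so single members of these pairs could exchange reads, whereas the sum of the members with one seed does not depend on how reads were split among those members.

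M group replicate 1 stood apart from the other 5 libraries in most of these miRNAs, though not in miR-92a-3p. It was the highest library for 10 of 10 members, where it was the highest for 184 of the 548 miRNAs tested (33.6%). A distance of at least 4-fold to the next library was seen in 6 of the 10 members and in 37 of the 548 (6.75%). Of these 6, miR-106a-5p, miR-18b-5p and miR-20b-5p passed the filter on low values only through this library, so that the filter itself required them to be high in it, and the others were miR-17-5p, miR-18a-5p and miR-363-3p. No other library lay 4-fold above the rest in any member. The label of M group replicate 1 has the code MX1_3, where the codes of the others begin with MX2 or GJ2, and the sources used here do not say what these codes mark. It had the fewest reads of the 6, and the members made up 0.915% of its miRNA reads, against 0.478% to 0.698% in the others. The group differences are therefore given with and without it where a miRNA could still be tested. The libraries were made from liver tissue, in which a different share of a cell type and a different amount of RNA per cell cannot be told apart.

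Fold changes below are differences of group means of log2(RPM + 1), tested by limma over all 548 miRNAs with a mean above 1 RPM in a group, and p-values are adjusted over all of them. In the miR-17 seed group, which restrains cell cycle inhibitors, miR-20a-5p was the most abundant member. It was at 246, 193 and 171 RPM in J group replicates 1, 2 and 3, and at 957, 190 and 305 RPM in M group replicates 1, 2 and 3. miR-17-5p, the founder of the family, was at 103, 101 and 70.2 RPM in the J group and at 536, 97.0 and 114 RPM in the M group. For both, M group replicate 2 fell within the range of the J group, so the groups overlapped, and M group replicate 1 was above the next library by 3.14-fold in miR-20a-5p (95% counting interval 2.93 to 3.36) and 4.70-fold in miR-17-5p (4.23 to 5.22). The J group over the M group gave a log2 fold change of -0.92 with a standard error of 0.55 for miR-20a-5p and of -1.0 with a standard error of 0.63 for miR-17-5p, and limma's adjusted p was 0.71 for both. Leaving out M group replicate 1 gave -0.26 (standard error 0.29) and -0.22 (standard error 0.27).

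The X-linked members of the same seed were close to absent outside that library. miR-106a-5p had 79 reads in M group replicate 1 and 0 or 1 read in each of the other 5 libraries, which is 30.1 RPM against at most 0.293 RPM. miR-20b-5p had 186 reads there and 2 or 3 reads in each of the others, or 70.8 RPM against 0.466 to 1.07 RPM. M group replicate 1 exceeded the next library 103-fold in miR-106a-5p and 66.2-fold in miR-20b-5p. With so few reads in the denominators the 95% counting intervals were wide, from 17.9 to 4103 and from 22.3 to 324. Each interval compares a pair of libraries, so it covers counting error only and not the spread between mice. Reads without molecular identifiers are not independent molecules, so the intervals may be too narrow even for counting error. The log2 fold changes on the log2(RPM + 1) scale, which understates the change of low miRNAs, were -1.68 for miR-106a-5p (standard error 1.23) and -1.64 for miR-20b-5p (standard error 1.41), both with an adjusted p of 0.71 from limma. Since miR-106a-5p and miR-17-5p differ in a single base, their reads were also compared within each library. miR-106a-5p made up 5.32% of the reads of this pair in M group replicate 1 (95% Wilson interval 4.29 to 6.58) and 0% to 0.301% in the others, where miR-17-5p alone gave 197 to 490 reads.

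**Figure D1:**
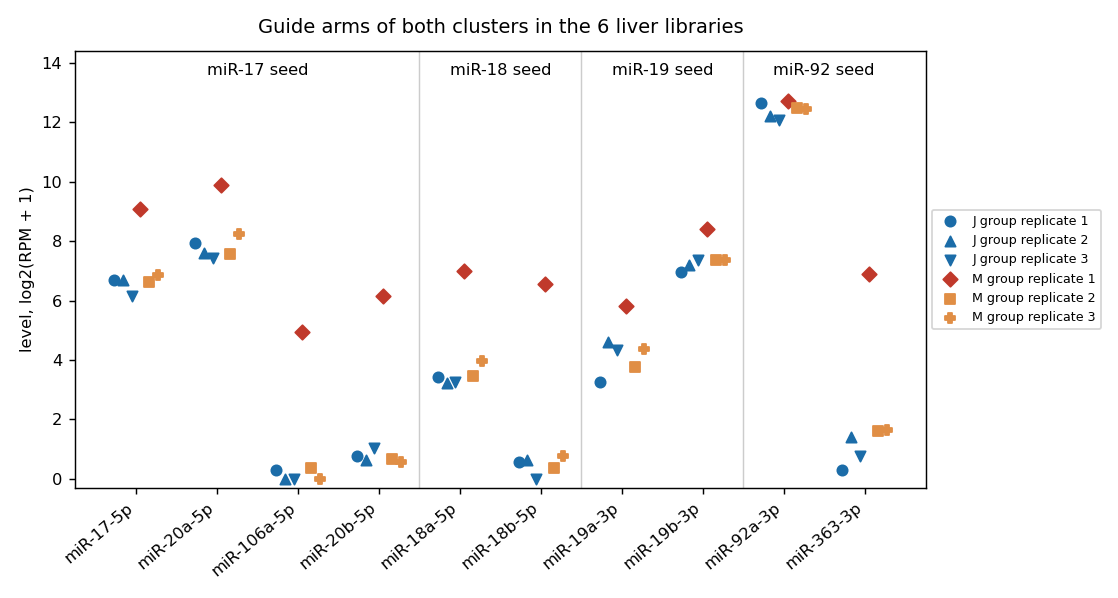
Level of each member in each of the 6 libraries as log2(RPM + 1), ordered by seed group, with 1 point per library (blue, J group; red diamond, M group replicate 1; orange, M group replicates 2 and 3). The red diamond is the highest point for all 10 members, far above the rest for miR-106a-5p, miR-20b-5p, miR-18b-5p and miR-363-3p and close to them for miR-92a-3p.

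The miR-18 seed group had the lowest summed level of the 4 seed groups of members and the largest excess of M group replicate 1 over the next library, 14.3-fold in the sum. miR-18a-5p, from chromosome 14, was at 9.74, 8.37 and 8.56 RPM in the J group and at 127, 9.97 and 14.7 RPM in the M group. Every M library was above every J library, but J group replicate 1 (42 reads) and M group replicate 2 (34 reads) were close, and their 95% Wilson intervals of 7.2 to 13.2 RPM and 7.13 to 13.9 RPM overlapped. miR-18b-5p, from the X chromosome, was at 0.464, 0.558 and 0 RPM in the J group and at 92.9, 0.293 and 0.698 RPM in the M group. Outside M group replicate 1, which had 244 reads, it never had more than 3 reads. The fit gave a log2 fold change of -1.51 with a standard error of 0.86 in miR-18a-5p and of -2.17 with a standard error of 1.52 in miR-18b-5p (limma, adjusted p = 0.71 for both). Without M group replicate 1 that of miR-18a-5p was -0.41 (standard error 0.32), and miR-18b-5p no longer had a mean above 1 RPM in either group.

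The miR-19 seed group, known as a main carrier of the oncogenic activity of the cluster, differed less between that library and the others. miR-19b-3p was at 123, 145.99 and 165 RPM in the J group and at 335, 163 and 166 RPM in the M group. miR-19a-3p was at 8.58, 23.4 and 19.3 RPM in the J group and at 55.2, 12.6 and 19.8 RPM in the M group. M group replicates 2 and 3 were within or next to the J range in both, and M group replicate 1 was above the next library by 2.03-fold in miR-19b-3p (95% counting interval 1.83 to 2.24) and 2.35-fold in miR-19a-3p (1.79 to 3.12). By limma miR-19b-3p gave a difference of -0.53 on the log2 scale with a standard error of 0.33 and an adjusted p of 0.71, and miR-19a-3p one of -0.58 with a standard error of 0.59 and an adjusted p of 0.77. Without M group replicate 1 they were -0.19 and -0.002, the latter with a standard error of 0.46. Leaving out J group replicate 1 instead gave -0.18 for miR-19a-3p, and leaving out M group replicate 2 gave -1.02.

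The miR-92 seed group paired the most abundant member with one that was at a few reads in most libraries. miR-92a-3p was at 6488, 4809.8 and 4348 RPM in the J group and at 6824, 5789 and 5629 RPM in the M group. J group replicate 1 lay among the M libraries, and M group replicate 1 exceeded it by only 1.05-fold (95% counting interval 1.03 to 1.07). The groups differed by -0.24 on the log2 scale with a standard error of 0.19 (limma, adjusted p = 0.71), and by -0.15 without M group replicate 1. miR-92a-3p supplied 90.0% to 92.95% of the reads of the 10 members in 5 libraries and 74.6% in M group replicate 1. miR-363-3p, which ends the X-linked cluster, had 1, 6 and 2 reads in the J group (0.232, 1.67 and 0.713 RPM) and 311, 7 and 9 reads in the M group (118, 2.05 and 2.10 RPM). Its M libraries were all above its J libraries, also without M group replicate 1, but at these reads the 95% Wilson intervals of J group replicate 2 (0.768 to 3.65 RPM) and M group replicate 2 (0.994 to 4.24 RPM) overlap. The difference of -2.55 on the log2 scale, with a standard error of 1.36 and a limma adjusted p of 0.71, became -0.79 with a standard error of 0.43 and an adjusted p of 0.85 without M group replicate 1.

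By limma on log2(RPM + 1), 0 of the 10 members passed the study's thresholds, an absolute log2 fold change above 0.3 with an unadjusted p under 0.05, and 0 of 10 had an unadjusted p under 0.05. Over all 548 miRNAs tested, 29 passed (5.29%). The unadjusted p of the members ranged from 0.10 for miR-363-3p to 0.36 for miR-19a-3p. All 10 were lower in the J group by this fit, as were 323 of the 548 miRNAs (58.9%), and their median log2 fold change was -1.25 where that of all tested miRNAs was -0.13. Of the 10, miR-106a-5p, miR-18b-5p and miR-20b-5p reached the required mean of 1 RPM only through M group replicate 1, so their direction follows from that library. When it was left out 7 members were tested, with a median of -0.22 against -0.09 for the 519 miRNAs tested then, and 0 of 7 passed (0 also at an unadjusted p under 0.05), where 6.55% of all did. With any other single library left out, the 10 log2 fold changes stayed between -3.43 and -0.12. miR-18a-5p (-2.18) and miR-20a-5p (-1.42) passed the thresholds without M group replicate 2 (7.09% of all tested passed lower), and miR-92a-3p (-0.41) did without J group replicate 1 (3.24%), at limma adjusted p of 0.58, 0.58 and 0.80.

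Tests on the recovered whole reads gave other counts. edgeR's quasi-likelihood test put 5 of the 10 members past the thresholds, all lower in the J group, where 4.93% of all 548 miRNAs passed in that direction. These were miR-18a-5p (unadjusted p = 0.042), miR-106a-5p (0.039), miR-18b-5p (0.029), miR-20b-5p (0.042) and miR-363-3p (0.020). Among them miR-106a-5p, miR-18b-5p and miR-20b-5p entered the test only through M group replicate 1, which set their direction, so the count is not read against that share. The Benjamini-Hochberg adjusted p from edgeR was 0.57 for each of them. In a fit chosen after the values were seen, edgeR without M group replicate 1 put 0 of the 7 members still tested past the thresholds (0 also at an unadjusted p under 0.05, and 6.17% of all tested past), and the log2 fold changes of miR-18a-5p and miR-363-3p were then -0.39 and -1.19. DESeq2 called miR-18a-5p alone (unadjusted p = 0.0092, adjusted p = 0.38, 4.2% of all passed lower), and it gave no p for the 4 X-linked members, as it does where a single library's count lies far from the fit (Cook's distance).

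**Figure D2:**
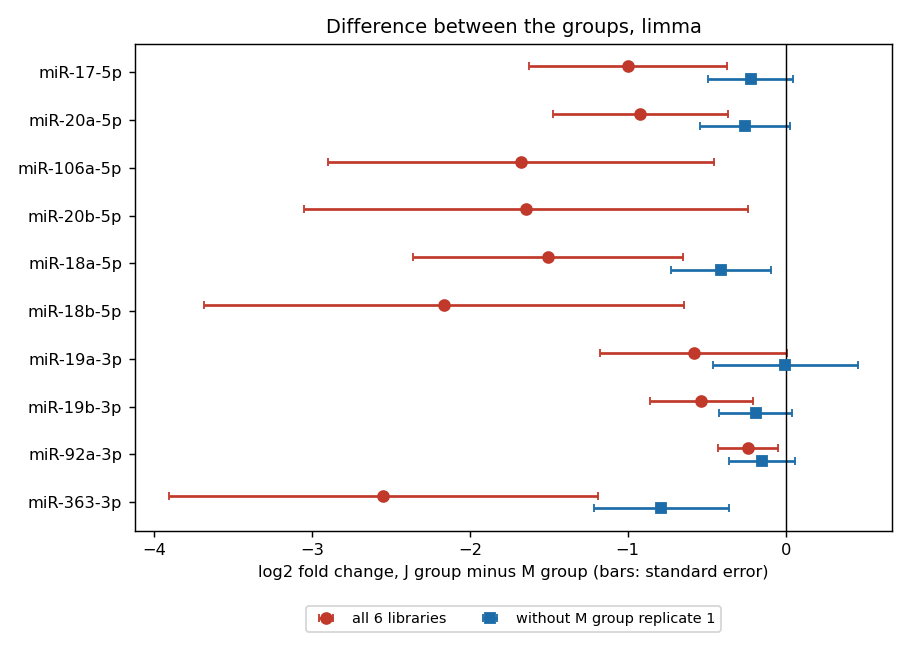
Log2 fold change of the J group over the M group for each member by limma on log2(RPM + 1), with all 6 libraries (red circles) and without M group replicate 1 (blue squares). Bars are standard errors, and 3 members have no blue square because they were not tested without that library. All 10 red circles lie below 0, and the blue squares lie between -0.79 and -0.002.

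The groups overlapped in 8 of the 10 members. The 2 whose M libraries were all above their J libraries were miR-18a-5p and miR-363-3p, where 9.31% of the 548 tested miRNAs had such M libraries. With M group replicate 1 left out it was the same 2, of 7 tested, against 14.5% of 519 miRNAs.

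Summed over the members with each seed, the reads no longer depend on how those members were told apart from each other. The sums leave out relatives outside the clusters with the same seeds, such as miR-93-5p and miR-25-3p, with which reads could still be exchanged. The 4 members with the miR-17 seed summed to 350, 294 and 243 RPM in the J group and to 1594, 288 and 420 RPM in the M group. The members with the miR-18 seed summed to 10.2, 8.93 and 8.56 RPM in the J group and to 220, 10.3 and 15.4 RPM in the M group. Those with the miR-19 seed summed to 132, 169 and 184 RPM against 391, 175 and 185 RPM, and those with the miR-92 seed to 6488, 4812 and 4349 RPM against 6943, 5791 and 5631 RPM. The difference between the groups in log2(sum + 1) was thus -0.98, -1.75, -0.54 and -0.25 for the members with the seeds of miR-17, miR-18, miR-19 and miR-92 in that order. The values without M group replicate 1 were -0.25, -0.41, -0.17 and -0.15. The miR-92 value also moved with J libraries, to -0.41 without J group replicate 1 and to -0.13 without J group replicate 3, and the miR-17 value was -1.48 without M group replicate 2. No test was made on these sums.

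The clusters themselves were compared through the members that only one of them encodes. miR-17-5p, miR-18a-5p, miR-19a-3p and miR-20a-5p, from chromosome 14 alone, summed to 367, 326 and 270 RPM in the J group and to 1675, 309 and 454 RPM in the M group. miR-106a-5p, miR-18b-5p, miR-20b-5p and miR-363-3p, from the X chromosome alone, summed to 1.62, 2.79 and 1.78 RPM in the J group and to 312, 3.22 and 3.26 RPM in the M group. M group replicate 1 was therefore 3.69-fold above the next library in the first sum and 95.8-fold above it in the second. The chromosome 14 sum exceeded the X-linked sum 95.9-fold to 226-fold in the other 5 libraries and 5.37-fold in M group replicate 1. miR-19b-3p and miR-92a-3p, which both clusters encode, summed to 7160 RPM in that library and to 4513 to 6611 RPM in the others, a 1.08-fold excess over the next one.

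**Figure D3:**
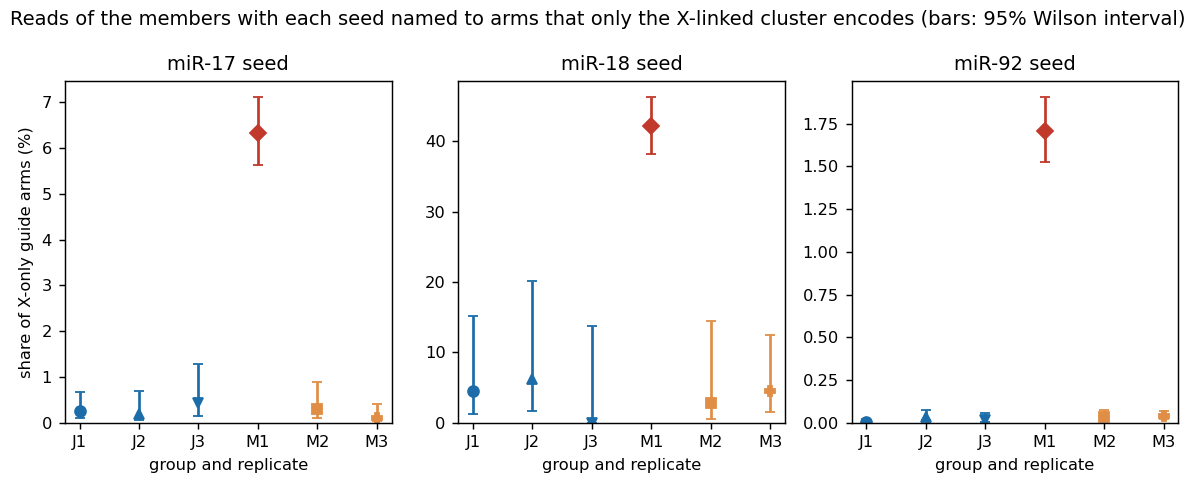
Percent of reads named to guide arms that the X-linked cluster alone encodes, in each library, among the members with the miR-17, miR-18 and miR-92 seeds, each panel with its own scale. Points are libraries (blue, J group; red diamond, M group replicate 1; orange, M group replicates 2 and 3), and bars are 95% Wilson intervals. M group replicate 1 is the highest point in each panel, at 6.33%, 42.2% and 1.71%.

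In the miR-17, miR-18 and miR-92 seed groups, the share of members that the X-linked cluster alone encodes was higher in M group replicate 1 than in the other libraries. Relatives outside the clusters are not in these shares. These members gave 6.33% of the reads of the 4 members with the miR-17 seed there (95% Wilson interval 5.63 to 7.11) against 0.111% to 0.441% in the others. Of the reads of the members with the miR-18 seed they gave 42.2% (38.3 to 46.3) against 0% to 6.25%, and miR-363-3p gave 1.71% of the reads of the pair with the miR-92 seed, against 0.00357% to 0.0372%. The other member of that pair, miR-92a-3p, is encoded on both chromosomes, so the part of its reads from the X chromosome cannot be told from these values. The share of miR-19a-3p in the miR-19 seed group, both of whose members can come from chromosome 14, was 14.1% in M group replicate 1 and 6.51% to 13.8% in the others, so it was next to the upper end of their range.

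**Figure D4:**
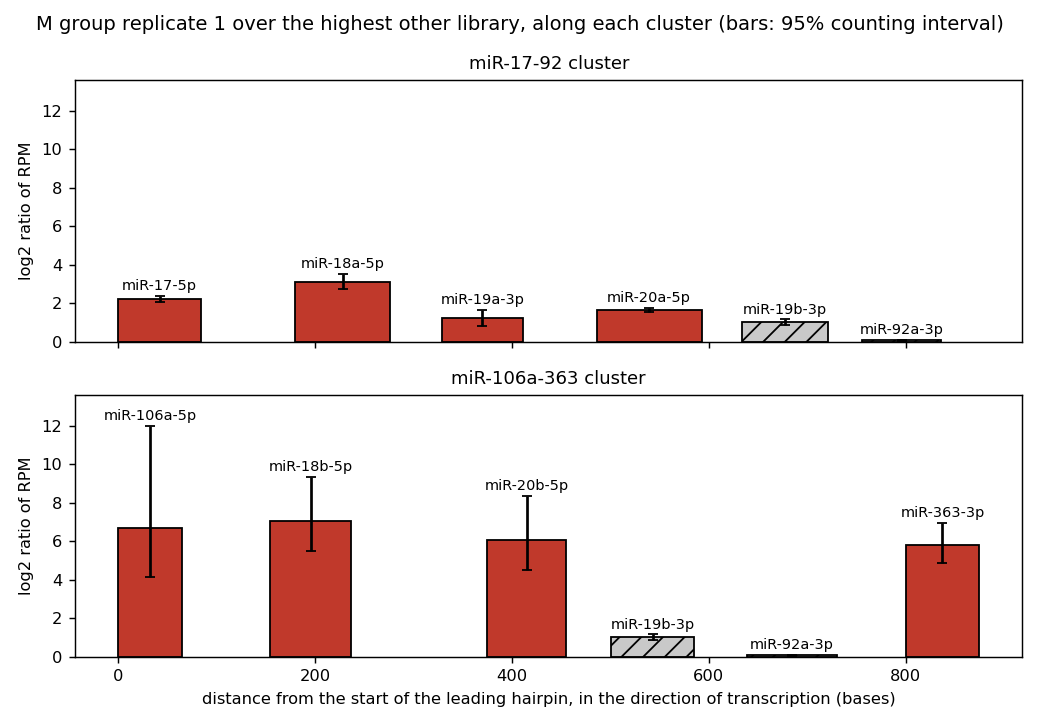
Ratio of M group replicate 1 to the next highest library, as log2, for the guide arm of each hairpin placed by its distance in bases from the start of the leading hairpin, for miR-17-92 on chromosome 14 and for miR-106a-363 on the X chromosome. Error bars are 95% counting intervals. The hairpins of miR-19b-3p and miR-92a-3p are hatched and stand in both maps with the same value, 2.03-fold and 1.05-fold, and the other X-linked arms stand at 56.5-fold to 133-fold against 2.35-fold to 8.67-fold for the other chromosome 14 arms.

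The other arms of the hairpins, usually degraded as passenger strands, were read from the same table, which listed 7 of 12. Of these, 5 passed the filter on low values and 0 of the 5 passed the thresholds by limma (5.29% of all tested), with 0 at an unadjusted p under 0.05. miR-18a-3p and miR-363-5p passed the filter only through M group replicate 1. miR-92a-1-5p comes only from the chromosome 14 copy of miR-92a, and was at 0.464, 0.837 and 1.07 RPM in the J group and at 7.23, 1.47 and 1.63 RPM in the M group. Its M libraries were all above its J libraries, with 19 reads in M group replicate 1, and its log2 fold change was -1.09 (adjusted p = 0.71 from limma), or -0.52 with a standard error of 0.36 when that library was left out. edgeR put it past the thresholds at an unadjusted p of 0.042 and an adjusted p of 0.57, where 4.93% of all miRNAs passed lower. By limma miR-92a-1-5p passed only without M group replicate 2 among the fits leaving out 1 library. There 7.09% of all miRNAs passed lower, and no limma adjusted p was below 0.58. Its 95% Wilson intervals in M group replicate 2 (5 reads, 0.626 to 3.43 RPM) and J group replicate 3 (3 reads, 0.364 to 3.14 RPM) overlapped, and 9.31% of all tested miRNAs had M libraries all above their J libraries. miR-92a-2-5p, from the X-linked copy, had 2 reads in M group replicate 1 and 0 in the others. miR-17-3p was at 9.27, 17.3 and 15.0 RPM in the J group and at 40.7, 12.0 and 12.3 RPM in the M group, and miR-20a-3p was at 3.01, 1.95 and 7.13 RPM and at 19.4, 4.69 and 6.05 RPM. The log2 fold change was -0.42 for miR-17-3p and -1.03 for miR-20a-3p (limma, adjusted p = 0.80 and 0.71), and 0.13 and -0.47 without M group replicate 1, so the direction of miR-17-3p turned. miR-18a-3p was at 0 to 0.279 RPM in the J group and at 3.43, 0.293 and 0.698 RPM in the M group, where M group replicate 2 and J group replicates 1 and 2 each had 1 read, so that depth alone orders these 3 libraries. miR-363-5p had 9 reads in M group replicate 1 and 0 in each of the other 5 libraries. The 5 tested arms were highest in M group replicate 1, as were 33.6% of all tested miRNAs, and miR-18a-3p and miR-363-5p were tested only through it. miR-19b-1-5p and miR-92a-2-5p, which were not tested, had at most 2 reads in any library. In M group replicate 1, miR-92a-1-5p was 4.44-fold above the next library, where its guide miR-92a-3p was only 1.05-fold above.

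The third paralogous cluster, miR-106b-25, which lies in an intron of the replication gene Mcm7, shares the seeds of miR-17 and miR-92. miR-93-5p was at 275, 302 and 279 RPM in the J group and at 655, 257 and 378 RPM in the M group, and miR-106b-5p at 38.7, 45.5 and 38.1 RPM and at 120, 26.7 and 56.3 RPM. miR-25-3p was at 1607, 1294 and 1370 RPM in the J group and at 3429, 1045 and 1916 RPM in the M group. M group replicate 1 was the highest library for all 3, by 1.73-fold to 2.12-fold over the next, and M group replicate 2 was the lowest. Together with miR-32-5p and miR-92b-3p, which carry the miR-92 seed elsewhere in the genome, 0 of 5 passed the thresholds by limma (5.29% of all tested). At an unadjusted p under 0.05 there were also 0. The study lists miR-32-5p as downregulated with JTXK at the same thresholds, where limma gave an unadjusted p of 0.21 here. The study's methods name no test for the sequencing data. With all 6 libraries the log2 fold changes were -0.47 for miR-106b-5p, -0.48 for miR-93-5p and -0.42 for miR-25-3p. The 3 miRNAs of the miR-106b-25 cluster passed without M group replicate 2, where 7.09% of all miRNAs passed lower. Without M group replicate 1 their log2 fold changes were 0.06 for miR-106b-5p, -0.13 for miR-93-5p and 0.003 for miR-25-3p. miR-32-5p was at 31.8, 41.0 and 41.4 RPM in the J group and at 48.0, 43.7 and 52.1 RPM in the M group, so its groups did not overlap, the only such case of the 5 (9.31% of all tested miRNAs). Its log2 fold change was -0.33 with and without M group replicate 1, and leaving out each library in turn gave -0.40 to -0.21. miR-92b-3p was at 1.62, 1.12 and 2.495 RPM in the J group and at 2.28, 3.22 and 1.86 RPM in the M group, with overlapping groups. The log2 fold change of miR-92b-3p was -0.34, or -0.37 without M group replicate 1, and leaving out each library in turn gave -0.53 to -0.17.

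The miRNAs most like the members across the 6 libraries were those that were also high in M group replicate 1, which sets the profile of the members. Over 268 miRNAs with a mean above 10 RPM, the mean centred log2 level of the members was matched best by miR-181d-5p, miR-181c-5p, miR-181b-5p, miR-296-3p and miR-298-5p, with Pearson correlations of 0.990 to 0.995 that rest on M group replicate 1 and that over the other 5 libraries were 0.72, 0.81, 0.30, 0.10 and 0.06. miR-298-5p was at 1009.8 RPM in that library and at 0 to 1.07 RPM in the others, and miR-296-3p at 432 RPM and 0 to 0.558 RPM, so both reached a mean of 10 RPM only through that library. miR-181b-5p, of a family known from lymphocyte development, was at 1464 RPM against 73.9 to 99.9 RPM. The 45 pairs of members had a median correlation of 0.93 over the 6 libraries and 0.01 over the 5 without M group replicate 1.

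Marker miRNAs of the cell types of liver were read in the same libraries. miR-122-5p, the defining hepatocyte miRNA, gave 20.9% to 26.2% of all reads, and the 5 hepatocyte markers summed to 391597 to 419287 RPM in the J group and to 392287 to 450543 RPM in the M group. The 7 leukocyte markers summed to 988 to 1370 RPM in the J group, and to 6579, 2306 and 1768 RPM in the M group, highest in the library in which the members were highest. Of the 7, M group replicate 1 was the highest library in 4. miR-142a-3p, a defining leukocyte miRNA, was at 444 RPM there and at 25.3 to 47.0 RPM in the others, and miR-146a-5p was at 1798 RPM and 225 to 845 RPM. By contrast miR-223-3p, the defining miRNA of neutrophils and monocytes, was at 25.1 RPM and 15.8 to 38.2 RPM, and miR-155-5p at 3.43 RPM and 1.39 to 7.22 RPM. The 5 bile duct epithelium markers summed to 4298 RPM against 950 to 2379 RPM, with M group replicate 1 highest in 4 of 5, and the 4 stromal markers found of 5 to 25242 RPM against 12582 to 20214 RPM, highest in 2 of 4. Red blood cell markers (2 found of 3) summed to 4048 RPM in that library and 2534 to 9724 RPM in the others, and miR-126a-3p of endothelial cells (1 found of 2) was at 4761 RPM and 4166 to 6718 RPM. No marker found was at 0 in any library, and the part of these cell types in the values of the members was not tested.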

How the data were processed

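Small RNA libraries of 6 livers (3 per group, of 6 mice per group) were made with the NEBNext kit and sequenced on a HiSeq instrument. The authors deposited one table of RPM (reads per 1000000 miRNA reads) per library, and the submitters' processing notes name the mm9 build. The aligner and the rule for reads that match several miRNAs are not given in the sources used here. Each RPM column sums to 1000000, and 100% of the values came out as whole reads (tolerance 0.01 read). The suffix of the row names was removed. Positions and mature sequences are from GRCm38 annotation and RefSeq, and no coordinate was converted.

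Levels were compared as log2(RPM + 1) with limma 3.58.1 (lmFit, eBayes with trend, two-sided) in R 4.3.3, without covariates, for miRNAs with a mean above 1 RPM in at least 1 group. Thresholds, as in the study, asked for a log2 fold change beyond 0.3 in size and p under 0.05 before adjustment, beside Benjamini-Hochberg adjusted p. edgeR 4.0.16 (quasi-likelihood, TMM) and DESeq2 1.42.0 on the recovered reads, other pseudocounts, filters and scalings, a replicate block and leaving out each library were alternatives, and edgeR put 45 miRNAs past the thresholds. The script was tested on simulated data. Ratios of libraries carry exact counting intervals and shares carry Wilson intervals (95%). Depth sets a limit of 3 reads, 0.695 to 1.14 RPM. All 10 members are named, the listed other arms and family miRNAs by count with values for those above 1 RPM, and the 5 most alike miRNAs by Pearson correlation. Members, lists and tests were chosen with earlier results of these data known. The labels give separate mice, so p-values measure the spread between mice. The arms miR-19a-5p, miR-19b-2-5p, miR-106a-3p, miR-18b-3p and miR-20b-3p were not analysed here.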

Additional observations from a re-analysis of the deposited data

How the results depend on the processing

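Of 164 refits of single members, 163 gave a lower level in the J group. The exception was miR-19a-3p at a log2 fold change of 0.12 by edgeR without M group replicate 1. That fit was chosen after the values were seen. M group replicate 1, the highest library for all 10 members, was left out of only 7 limma and 7 edgeR refits. The direction of miR-106a-5p, miR-18b-5p and miR-20b-5p follows from that library, so the count of 163 is not read as support. The side of the thresholds changed in 10 of the 164 refits, and the smallest adjusted p was 0.38. For the 4 X-linked members DESeq2 gave no p, so these refits were counted as unchanged though they could not be placed on a side. Against 0 members and 29 miRNAs in all by limma, edgeR put 5 members and 45 miRNAs past the thresholds, DESeq2 1 member and 36 miRNAs, and limma without the filter 1 member (miR-363-3p) and 36 of 1039 miRNAs (3.46%). Leaving out each library in turn gave 0 to 2 members and 21 to 46 miRNAs, the highest without M group replicate 2. The cause of these changes was not tested. The 29 miRNAs were 21 lower and 8 higher in the J group. Median-of-ratios scaling gave 13 lower and 17 higher, and quantile normalization 12 lower and 17 higher, where the median of all tested miRNAs moved from -0.13 to -0.04 and 0.05, and the 10 members stayed lower with 0 past the thresholds. The log2 ratio of the chromosome 14 to the X-linked sum differed by 1.60 between the groups, by 1.89 with a pseudocount of 0.1 RPM, by 0.73 with 10 RPM by 0.25 without M group replicate 1, by 2.14 without M group replicate 2 and by 2.41 without M group replicate 3.

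Samples share replicate numbers across the groups, but their deviations correlated at 0.05, 0.06 and -0.01, which gave no sign of pairing. With 3 libraries per group, such a check cannot show that the samples are unpaired. A fit with the replicate number as a block put 27 miRNAs and 0 members past the thresholds. Depth limits the X-linked members, which had 0 to 9 reads outside M group replicate 1.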
